A study of Mus musculus with 6 samples.

Results

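The 37 genes described here encode signals of inflammation, the NF-kB and interferon factors that switch those signals on or off, and the machinery that presents peptides to T cells. They were taken as a named list, and the summits of p53 binding counted for each were those inside the gene or at most 10 kb outside either annotated end (RefSeq positions on mm10). All 37 were found among the 21887 protein-coding genes of the assembled chromosomes. In 3KR cells 17 of the 37 (45.9%) had at least 1 summit, beside 23.4% of all protein-coding genes, and 20 had none. In WT cells 1 (2.70%) had one, beside 5.04%. The 3KR list of summits was the longer, with 6753 entries beside 1668. Cut by score to the WT length, it had a summit at 3 of the 37 (8.11%), beside 7.08% of all genes.

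p53 binding was measured by ChIP-seq, in which DNA bound by a protein is recovered with an antibody and sequenced, in basal progenitor cells of mouse epidermis sorted for high alpha-6 integrin and for EpCAM. There were 3 libraries from p53WT mice (WT) and 3 from p533KR mice (3KR), all of animals aged 8 weeks. From general knowledge, the 3KR allele replaces 3 lysines of the p53 DNA-binding domain with arginine, which keeps them from being acetylated. The cells of both genotypes were digested in medium with 25 µM Nutlin-3a, which stabilises p53 by blocking its ligase MDM2, so no group without stabilised p53 was part of the comparison.

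One list of summits per genotype was analysed, with 1668 entries for WT and 6753 for 3KR. The labels assign each list to all 3 libraries of its genotype, and neither list separates them, so a value for a single animal cannot be given and no test across animals was possible. The depth behind each list is unknown, and how far the lists differ through depth cannot be told apart from genotype. Names of summits hold a run label, which ends in 1 in the WT list and contains Doxo in the 3KR list. The WT list may thus come from 1 library, which the files do not settle. Whether Doxo names an agent given to 3KR cells cannot be read from the labels, and it would be confounded with genotype in each count that follows. The lists hold no expression values, so the sorted cell type was not checked against its markers. Of 16 genes that mark immune cells, fibroblasts, endothelium or melanocytes, 3 had a 3KR summit (Cd3g, Pecam1 and Thy1) and 0 a WT summit. The 3KR share of 18.8% stood beside 23.4% of all protein-coding genes, and the WT share beside 5.04%. The summit at Cd3g was 21 bp from Ube4a, a nearer gene.

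Keratinocytes of the basal layer are sentinels of the skin. Danger signals reach them through Toll-like receptors and the adaptor MyD88, or through receptors for the interleukin-1 and TNF families, and these release NF-kB dimers from their inhibitors to enter the nucleus. NF-kB then switches on cytokines, chemokines and its own inhibitors, while interferons act through STAT and IRF factors on antiviral genes and on the MHC class I pathway, in which TAP1 and TAP2 carry peptides to the molecules that display them. p53 itself binds response elements made of a pair of half-sites, and is known to share some target genes with NF-kB and IRF factors.

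The first comparison asks which of these genes lay beside p53 summits in each genotype. With a summit at 17 of 37 genes, the 3KR share was 45.9%, beside 23.4% of all protein-coding genes under the same rule. The WT share was 1 of 37, or 2.70%, beside 5.04% of all genes. The 1 gene with a WT summit, Nfkb1, also had a 3KR summit, so 16 of 37 genes (43.2%) had one in 3KR alone, beside 19.4% of all genes. No summit beside any of the 37 genes was shared, which means at most 200 bp from a summit of the other list. Among all genes 3.11% had such a shared site. The list of genes was chosen with earlier results of these data known, so these shares are a description and carry no p-value.

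The 37 genes are short, with a median length of 6.86 kb beside 17.2 kb for all protein-coding genes. They had a median of 3 other protein-coding genes within 50 kb, as did all genes. Counted once for each gene in reach, 3KR summits stood at 1.62 per 100 kb of window at the 37 genes and at 0.460 per 100 kb at all genes. For WT these densities were 0.0810 and 0.0869. Over the 19663 genes no longer than the longest of the 37 they were 0.655 in 3KR and 0.111 in WT. The median length of those genes was 14.3 kb, still above that of the 37, so length was not matched. The nearest 3KR summit was at a median of 12.5 kb from the 37 genes and 75.4 kb from all genes. For the nearest WT summit the medians were 233 kb and 529 kb. Within 50 kb, 33 of the 37 genes (89.2%) had a 3KR summit, beside 42.2% of all genes, and 3 of 37 (8.11%) a WT summit, beside 11.6%. In that distance 30 of the 37 (81.1%) had a 3KR and no WT summit, beside 32.2% of all genes, and 1 of the 37 had a shared site, beside 7.22%.

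**Figure D1:**
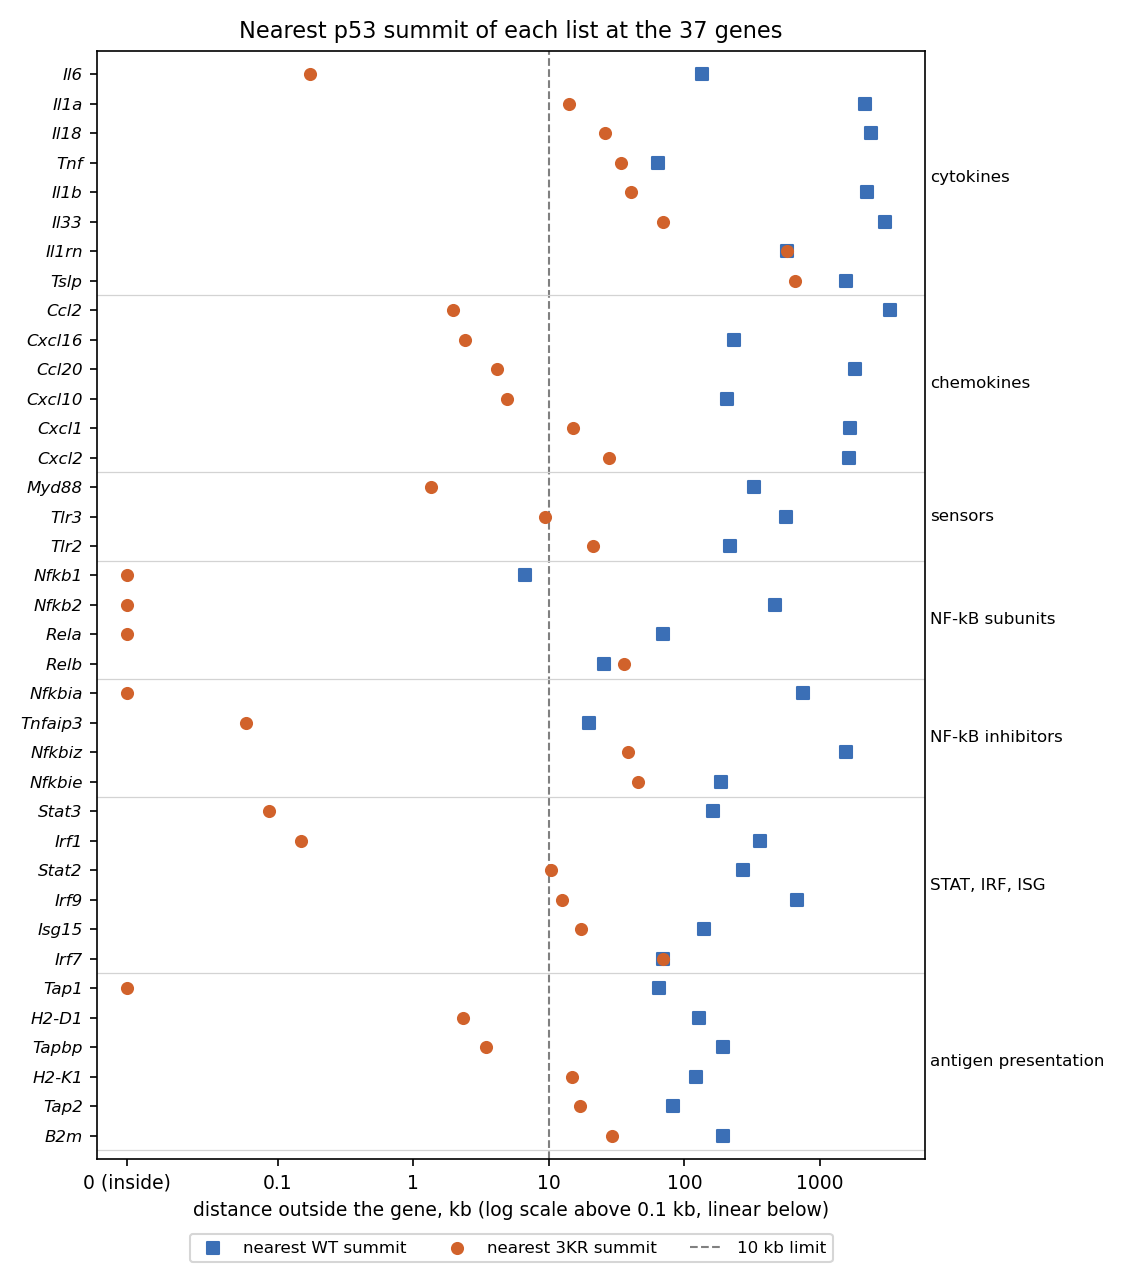
Distance in kb from each of the 37 genes, grouped by role, to the nearest summit of the WT list (squares) and of the 3KR list (circles), with 0 for a summit inside the gene. The dashed line marks the 10 kb limit: 17 circles and 1 square, that of Nfkb1, lie to its left, and the 3KR summit is the nearer at 34 of 37 genes (91.9%), beside 85.9% of all protein-coding genes.

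Starts of genes held many of these summits. A start was known for 30 of the 37 genes from a RefSeq promoter table, and 8 of these 30 (26.7%) had a 3KR summit within 1 kb of it, beside 11.3% of all genes with a known start. They were Il6, Irf1, Nfkb2, Nfkbia, Rela, Stat3, Tap1 and Tnfaip3. In WT 0 of 30 did, beside 1.03% of all genes. At 7 of the 8 genes, all but Rela, the summit was within 300 bp of a start. The 250 bases before those starts are printed here because they are the promoter sequence over or next to which the 3KR summits stood. They come from RefSeq (GRCm38.p6, the assembly of mm10), are read 5′ to 3′ on the strand of the gene, and end at the last base before the start. Capitals mark matches to 7 motifs that were searched on both strands: the p53 half-site, the NF-kB site, the ISRE core bound by STAT and IRF factors (GAAANNGAA), AP-1 (TGANTCA), CRE (TGACGTCA), ETS (CCGGAAG) and SP/KLF (GGGCGG). Nfkb2 has 2 such starts.
Stat3, chr11:100939541-100939790, minus strand: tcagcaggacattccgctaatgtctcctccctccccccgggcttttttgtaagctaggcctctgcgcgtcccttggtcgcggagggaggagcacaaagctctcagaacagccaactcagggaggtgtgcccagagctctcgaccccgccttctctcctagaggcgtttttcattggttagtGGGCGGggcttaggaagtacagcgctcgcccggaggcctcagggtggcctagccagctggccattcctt
Tnfaip3, chr10:19015411-19015660, minus strand: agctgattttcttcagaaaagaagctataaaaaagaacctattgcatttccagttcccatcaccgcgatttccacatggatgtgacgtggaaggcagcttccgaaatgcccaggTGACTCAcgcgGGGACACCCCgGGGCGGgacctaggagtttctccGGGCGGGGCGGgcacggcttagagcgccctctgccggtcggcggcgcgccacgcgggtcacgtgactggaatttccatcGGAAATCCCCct
Il6, chr5:30012864-30013113, plus strand: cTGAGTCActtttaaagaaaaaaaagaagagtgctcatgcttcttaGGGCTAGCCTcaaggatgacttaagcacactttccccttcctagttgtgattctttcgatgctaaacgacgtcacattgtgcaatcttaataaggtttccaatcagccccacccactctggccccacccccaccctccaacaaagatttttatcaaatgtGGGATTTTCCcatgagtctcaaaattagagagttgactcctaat
Nfkbia, chr12:55492648-55492897, minus strand: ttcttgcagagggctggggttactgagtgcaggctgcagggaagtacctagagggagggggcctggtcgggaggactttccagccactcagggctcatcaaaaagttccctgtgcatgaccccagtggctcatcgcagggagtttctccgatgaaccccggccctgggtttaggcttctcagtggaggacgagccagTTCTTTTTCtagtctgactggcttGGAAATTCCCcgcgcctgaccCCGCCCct
Irf1, chr11:53769764-53770013, plus strand: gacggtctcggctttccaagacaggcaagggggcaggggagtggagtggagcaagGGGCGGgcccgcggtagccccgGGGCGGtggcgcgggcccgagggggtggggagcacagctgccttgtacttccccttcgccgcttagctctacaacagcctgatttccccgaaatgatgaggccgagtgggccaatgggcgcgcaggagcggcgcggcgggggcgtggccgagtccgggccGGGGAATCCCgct
Nfkb2, chr19:46304487-46304736, plus strand: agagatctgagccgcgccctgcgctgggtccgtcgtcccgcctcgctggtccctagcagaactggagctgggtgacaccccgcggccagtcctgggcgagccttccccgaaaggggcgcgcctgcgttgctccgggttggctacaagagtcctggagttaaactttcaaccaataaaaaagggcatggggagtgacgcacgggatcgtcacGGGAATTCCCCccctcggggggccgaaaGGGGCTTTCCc
Tap1, chr17:34187306-34187555, plus strand: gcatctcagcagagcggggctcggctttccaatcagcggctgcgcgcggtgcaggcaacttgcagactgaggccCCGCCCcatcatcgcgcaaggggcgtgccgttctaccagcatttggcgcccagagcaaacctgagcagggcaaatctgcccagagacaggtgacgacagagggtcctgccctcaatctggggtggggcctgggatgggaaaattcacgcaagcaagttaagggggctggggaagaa
Nfkb2, chr19:46305445-46305694, plus strand: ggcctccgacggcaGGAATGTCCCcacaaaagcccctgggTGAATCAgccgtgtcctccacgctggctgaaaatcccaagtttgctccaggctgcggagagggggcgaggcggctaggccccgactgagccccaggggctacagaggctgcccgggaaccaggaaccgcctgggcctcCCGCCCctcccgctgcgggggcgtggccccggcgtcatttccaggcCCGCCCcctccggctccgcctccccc

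In these 8 windows the summit stood 148 bp before the start of Stat3, 79 bp before that of Tnfaip3, 173 bp before that of Il6 and 147 bp before that of Irf1. For Nfkb2 the distances were 141 and 203 bp before its 2 starts. The summits of Nfkbia and Tap1 lay 8 and 34 bp past the start, just beyond the last base printed. An NF-kB match was present in 6 of the 8 windows, those of Il6, Irf1, Nfkbia, Tnfaip3 and both of Nfkb2, and in neither that of Stat3 nor that of Tap1. SP/KLF matches were likewise in 6 of the 8 windows, and AP-1 matches in 3. A p53 half-site was present in 1, that of Il6, where GGGCTAGCCT began 204 bases before the start and its centre lay 26.5 bp from the summit. The nearest NF-kB match to a summit, in the second Nfkb2 window, was centred 28.5 bp from it, and the AP-1 match of the same window 4 bp from it. In Tnfaip3 the matches nearest to the summit were those to SP/KLF, the closest at 4.5 bp, while its NF-kB matches lay 41.5 and 71.5 bp away. In Irf1 the NF-kB match was 138.5 bp from the summit.

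NF-kB matches were also frequent in windows of these genes with no summit near. Of all 39 windows of the 30 genes, 18 held an NF-kB match (46.2%), beside 4.18% of the 21263 windows of all genes. Of the 31 windows with no 3KR summit within 300 bp of the start, 12 held one (38.7%). The 18 windows with a match belong to 15 genes, among them Cxcl1, Cxcl2, Tlr2, H2-K1 and B2m, which had no summit in reach. Across all genes, windows with a 3KR summit within 300 bp of the start held an NF-kB match in 3.85% of 1820 cases. The p53 half-site was in 2.56% of the 39 windows, in 6.04% of those 1820 and in 6.31% of all. ETS matches went the other way, with 17.9% of the 1820, 8.98% of all and 1 of the 39 (Nfkbie). ISRE cores were in 15.4% of the 39 windows, beside 6.84% of all, in genes such as Isg15, Stat2 and Cxcl10, and AP-1 matches in 17.9% beside 6.13%. A CRE match was in 0 of the 39 windows and in 1.92% of all. SP/KLF matches were in 43.6% of the 39 windows, in 66.4% of the 1820 and in 42.6% of all. A match describes letters in a window, and no window tells whether the factor was bound.

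**Figure D2:**
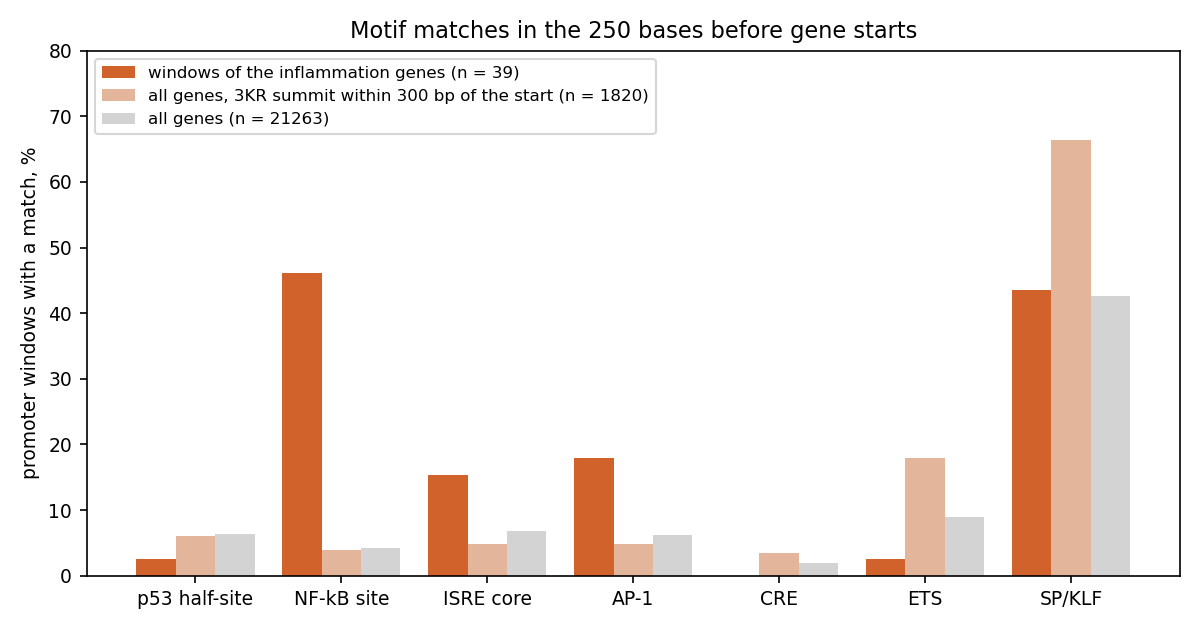
Share of windows, the 250 bases before a gene start, with at least 1 match to each of 7 motifs, for the 39 windows of the inflammation and antigen presentation genes, for the 1820 windows of any gene with a 3KR summit within 300 bp of the start, and for all 21263 windows. NF-kB matches are in 46.2% of the first set and 3.85% and 4.18% of the others, and p53 half-sites in 2.56%, 6.04% and 6.31%.

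Among the cytokines, 1 of 8 (12.5%) had a 3KR summit and none a WT summit, beside 23.4% and 5.04% of all genes. That gene was Il6, which encodes a cytokine of fever and the acute phase response (chromosome 5, 30013114 to 30019975). Its 3KR summit at 30012941 scored 11.4 and ranked 2770 of 6753, and no other protein-coding gene was within 10 kb of it. Scores are those of the authors' peak caller, a −log10 p or q value, and were compared only within a list. The nearest WT summit of Il6 was 135 kb away. Il1a and Il1b, the genes of interleukin-1 alpha and beta, shared their nearest 3KR summit, at 129324383 on chromosome 2, which stood 14.2 kb outside Il1a and 40.2 kb outside Il1b. The nearest WT summits of this pair were 2162 and 2227 kb away. Il18, a cytokine stored as a precursor in keratinocytes, had a 3KR summit at 26.0 kb, and Tnf one at 34.1 kb. Il33, an alarmin of barrier cells, Tslp, which drives allergic inflammation, and Il1rn, the antagonist of interleukin-1, had none within 50 kb. Il1rn lay 568 kb from a site present in both lists.

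Chemokine genes, which draw leukocytes into tissue, had 3KR summits in 4 of 6 cases (66.7%), beside 23.4% of all genes. None had a WT summit, beside 5.04% of all genes. Ccl2, the attractant of monocytes (chromosome 11, 82035577 to 82037452), had 2, one on either side of the gene. They stood 2415 bp outside its lower end with a score of 15.0 (rank 1813) and 1952 bp outside its upper end with 10.7 (rank 3028). A further 4 3KR summits lay between 11.6 and 28.6 kb from Ccl2, while its nearest WT summit was 3274 kb away, the greatest distance among the 37 genes. Ccl20, which attracts cells bearing CCR6, had a summit 4158 bp past its far end, 6559 bp from its start (score 10.1). Cxcl10, an interferon-induced attractant of T cells, had one 4900 bp before its start (score 12.1), which at the same time lay inside Art3. The summit 2395 bp from Cxcl16, the gene of the ligand of CXCR6, lay inside Med11, 76 bp from one of its ends (score 7.48). Cxcl1 and Cxcl2, the neutrophil attractants, shared a nearest 3KR summit at 15.0 and 27.6 kb.

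Of the sensors and their adaptor, 2 of 3 (66.7%) had a 3KR summit, beside 23.4% of all genes. Myd88, the adaptor of most Toll-like receptors and of the interleukin-1 receptor (chromosome 9, 119335934 to 119340018), had the highest scored of the 20 summits at these genes, 23.9, at rank 822 of 6753. It stood at 119341370, 1352 bp before the start of Myd88, but also inside Acaa1a, 342 bp from one of its ends, so it cannot be given to Myd88 alone. Tlr3, the receptor for double-stranded RNA and a gene described elsewhere as a p53 target, had one 9317 bp outside the gene (score 9.39), the farthest of those counted. Tlr2, a receptor for bacterial lipopeptides, had its nearest at 21.2 kb (score 17.4). The gene just beyond the limit was Stat2, with a 3KR summit at 10.4 kb. The WT summit of Nfkb1, at 6.71 kb, was the farthest counted in that list, and that of Tnfaip3, at 19.9 kb, the first beyond.

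NF-kB subunit genes had a 3KR summit in 3 of 4 cases (75.0%), beside 23.4% of all genes. Nfkb1, which encodes p105 and its product p50 (chromosome 3, 135584655 to 135691969, the longest of the 37 genes at 107 kb), was the one gene with a summit in both lists, at different places. The WT summit at 135698675 lay 6706 bp outside its upper end, with a score of 6.83 and rank 1176 of 1668. The 3KR summit at 135670741 lay inside, 21.2 kb from that same end, with a score of 15.0 and rank 1813 of 6753. The 2 summits were thus not the same site. Rela, which encodes the p65 subunit (chromosome 19, 5637442 to 5648134), had a summit inside, 324 bp past its start (score 5.69), and a higher one 753 bp past its far end (score 21.4, rank 1008). Nfkb2, which encodes p100 and p52, had the summits at its inner starts described with the promoters (scores 5.69 and 4.05). Relb, the partner of p52, had none in reach. It was 1 of 3 genes whose nearest summit was a WT summit, at 25.4 kb (score 18.4, rank 309 of 1668), against 35.8 kb in 3KR.

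Inhibitors of NF-kB had 3KR summits in 2 of 4 cases, beside 23.4% of all genes. A WT summit was in reach of none, beside 5.04% of all genes. Both 3KR summits were at the promoter, as were those of genes with other roles, such as Il6 and Stat3. Nfkbia encodes IkB alpha, which holds NF-kB in the cytoplasm (chromosome 12, 55489409 to 55492647), and its summit at 55492639 scored 8.19 (rank 4294). Tnfaip3 encodes A20, a ubiquitin-editing enzyme that ends NF-kB signalling (chromosome 10, 19000910 to 19015410), and its summit at 19015489 scored 12.8 (rank 2330). Beyond the limit, Tnfaip3 was the one gene of the 37 with a site of both lists within 50 kb. The WT summit at 19035281 and the 3KR summit at 19035282 were 1 bp apart, at 19.9 kb upstream of the gene. The WT summit scored 12.4 (rank 557 of 1668) and the 3KR summit 16.6 (rank 1570 of 6753). The upstream side of Tnfaip3 held further 3KR summits at 28.9 and 47.0 kb. Nfkbie and Nfkbiz, which encode IkB epsilon and the nuclear IkB zeta, had their nearest 3KR summits at 45.4 and 38.5 kb.

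In the STAT, IRF and interferon-stimulated group 2 of 6 genes (33.3%) had a 3KR summit, beside 23.4% of all genes. Stat3, which carries the signal of IL-6 family cytokines (chromosome 11, 100886806 to 100939594), had one at 100939688, 94 bp outside the gene, with a score of 18.1 and rank 1372. Irf1, an interferon-induced activator of MHC class I genes (chromosome 11, 53770014 to 53778374), had one at 53769867, with a score of 5.69. No other protein-coding gene lay within 10 kb of either summit. Irf9 and Stat2, parts of the ISGF3 complex of type I interferon signalling, had summits just beyond the limit, at 12.5 and 10.4 kb, and Isg15, a ubiquitin-like antiviral protein, one at 17.1 kb with a score of 26.5. Irf7, the amplifier of type I interferon, had its nearest summits at 69.8 kb in WT and 69.9 kb in 3KR, and these were 1 shared site (rank 100 of 1668 and 408 of 6753).

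Antigen presentation genes had a 3KR summit in 3 of 6 cases, beside 23.4% of all genes. They had a WT summit in none, beside 5.04% of all genes. All 3 were on chromosome 17, where 7 of the 37 genes lie. H2-K1 and Tap2, with no summit in reach, lie there too, and B2m is the only gene of this group elsewhere. Tap1, a subunit of the peptide transporter that has also been described as a p53 target (34187556 to 34197225), had one at 34187590, 34 bp inside the gene, with a score of 5.69. This summit was also 260 bp from Psmb9, an immunoproteasome gene that starts on the other side of it, and 16.9 kb from Tap2. H2-D1, a classical MHC class I gene (35263094 to 35267497), had a summit 2334 bp past its far end with a score of 8.10 and no other protein-coding gene in reach. Class I genes are near-identical in stretches, so reads there may map to several copies, and the filter on such reads was not given in the sources used here. A summit 3431 bp from Tapbp, the gene of tapasin, stood 129 bp from Zbtb22 (score 5.13), the nearer gene. H2-K1 and B2m, the gene of the class I light chain, had their nearest 3KR summits at 14.7 and 29.3 kb.

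None of the summits at these genes stood among the highest scores of its list. The 20 3KR summits had scores from 4.05 to 23.9 with a median of 9.72, beside 10.1 for the whole list, and 9 of them were above that median. Their median rank was 3481.5, beside 3328 for all 4828 3KR summits in reach of any protein-coding gene. None was in the top decile of the list, which ended at rank 675, and 3 (Myd88, Rela and Stat3) were in the top 25%. Scores of this list come in steps. Of the 6753 summits, 85.5% had a score that another summit also had, and 285 shared the value 5.69 of Irf1, Nfkb2, Rela and Tap1. Ranks are therefore the best rank of each tied set. Of the 20 summits, 6 lay inside the gene and 14 outside, and at 16 no protein-coding gene was nearer than the listed one. At the other 4, beside Tapbp, Cxcl10, Cxcl16 and Myd88, another gene was.

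**Figure D3:**
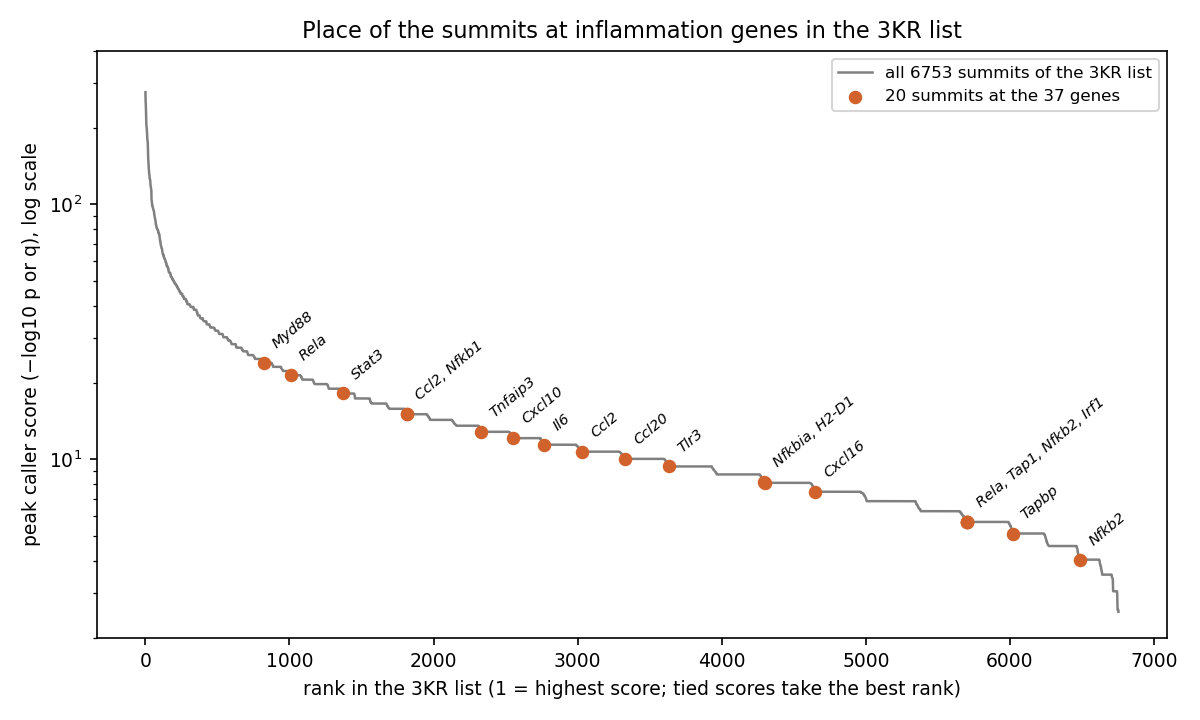
Score of each of the 6753 summits of the 3KR list by rank (grey line, log scale), with the 20 summits at the 37 genes as circles. The circles spread from rank 822 (Myd88) to rank 6486 (Nfkb2), and none is in the top decile, which ends at rank 675.

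The second comparison asks how far the shares depend on the unequal length of the lists. When the 3KR list was cut by score to the 1668 summits of the WT list, 3 of 37 genes (8.11%) had a 3KR summit, Myd88, Rela and Stat3, beside 7.08% of all genes. The share at the 37 genes was then near that of all genes. Of the 30 genes with a known start, 1, Stat3, then had a summit within 1 kb of it, beside 2.94% of all such genes. In 3KR alone 3 of 37 had one, beside 4.8% of all genes.

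With both lists cut to their top 50% by score, 9 of 37 (24.3%) had a 3KR summit, beside 13.4% of all genes. The 3KR cut fell within 273 summits tied at a score of 10.1, which were kept or dropped by their order in the list. Ccl20, with a summit of that score, was among the 9 through this order. Cut in this way, the WT list had no summit at these 9, beside 11.5% of all genes with one in 3KR alone. Nfkb1 is among the 9, since its WT summit was below that limit. At a start the values were 3 of 30 and 5.85%. In the cut WT list 0 of 37 had a summit, beside 2.56% of all genes. Within 1 kb of the gene 9 of 37 (24.3%) had a 3KR summit, beside 17.3% of all genes (in 3KR alone 14.7%), and 0 a WT summit, beside 3.51%. Within 5 kb the values were 16 of 37 (43.2%) beside 20.1% in 3KR, and 0 beside 4.26% in WT. With each summit given only to its nearest gene 13 of 37 (35.1%) had a 3KR summit, beside 17.3% of all genes.

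**Figure D4:**
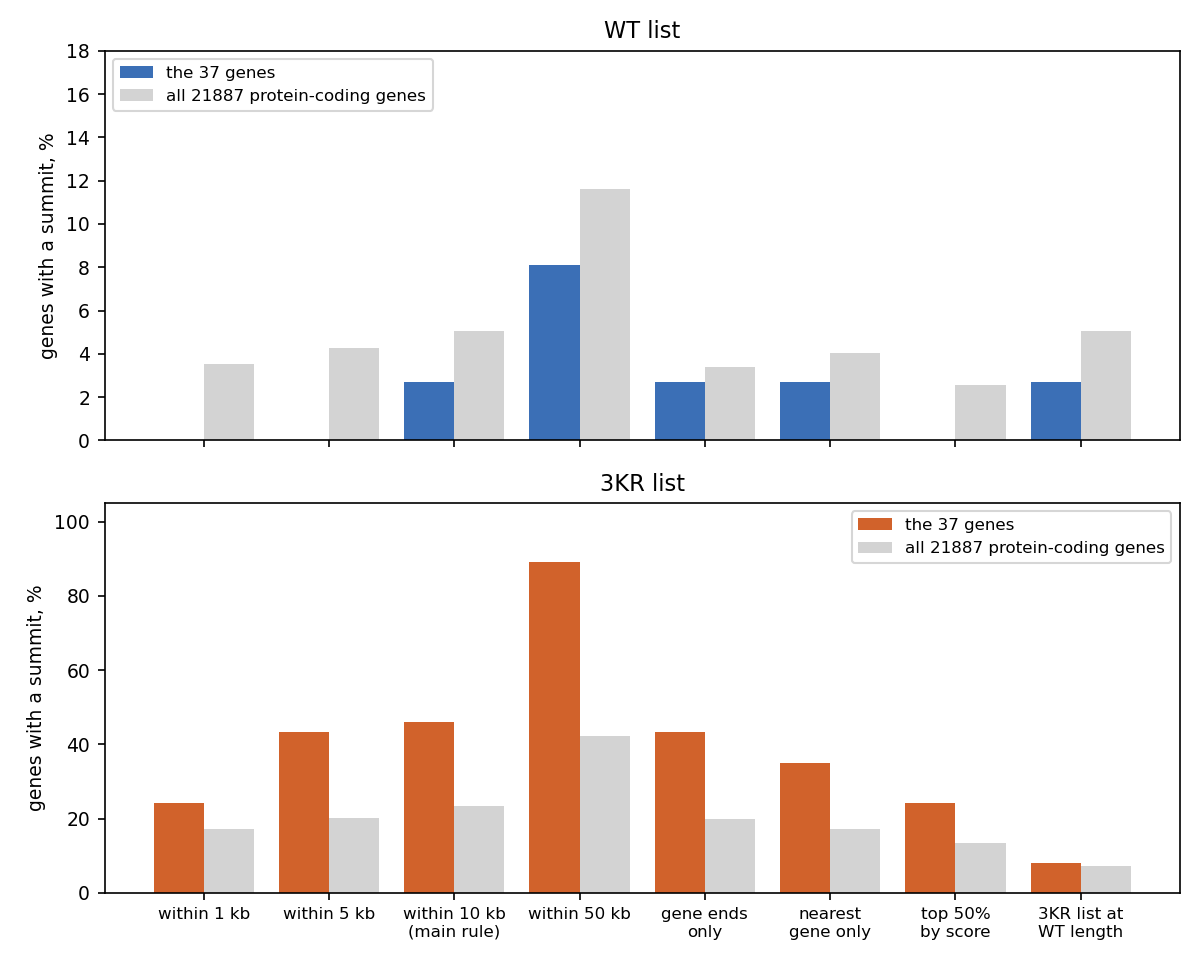
Share of genes with a WT summit (upper panel) or a 3KR summit (lower panel) among the 37 genes (coloured bars) and all 21887 protein-coding genes (grey bars), under the main rule and 7 alternatives; the vertical scales differ. In 3KR the coloured bar is 45.9% beside 23.4% under the main rule and 8.11% beside 7.08% with the list cut to the WT length.

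Other genes of the same pathways, a separate list of 63 with none of the 37 in it, were counted by the same rule. A 3KR summit was in reach of 29 of the 63 (46.03%), beside 23.4% of all protein-coding genes. A WT summit was in reach of 2 (3.17%), beside 5.04%, and 0 had a shared site, beside 3.11%. The median length of the 63 was 24.8 kb. Their counts were not repeated with the 3KR list cut to the WT length. The 2 genes with a WT summit were Il1r2, a decoy receptor for interleukin-1, and Traf3, a brake on the non-canonical NF-kB pathway. By group, 3KR summits were at 9 of 22 receptor and kinase genes (40.9%) and 6 of 11 NF-kB feedback genes (54.5%). They were at 9 of 17 interferon pathway genes (52.9%) and 5 of 13 antigen presentation genes (38.5%), each beside the same 23.4%. Among the highest scored in each were those of Il6ra (12.8) and Map3k7 (12.1), of Otulin (26.5), Bcl3 (14.3) and Zc3h12a (10.7), of Ifnar1 (11.4) and Jak2 (10.1), and of Calr (32.9), Nlrc5 (9.39) and Psmb9 (5.69). Cd14, Map3k14 and Traf2 tied for the third place of the first group at 11.4. Among them the summits of Map3k7, Otulin and Ifnar1 stood 207, 154 and 170 bp before a start. Of genes with a 3KR summit, 1 of 17 of the inflammation list and 1 of 29 of this list also had a WT summit (5.88% and 3.45%), beside 16.8% of all genes with a 3KR summit.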

How the data were processed

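Deposited were 2 lists of single-base summits, 1 per genotype. Peaks were called with MACS2 after alignment with BWA to mm10, per the submitters' processing notes, without versions. For the control, the threshold, the read filters and the combining of libraries, details were not given in the sources used here. Column values of the deposited lists are the authors' peak scores, taken as −log10 of a p-value or q-value (which of these is not stated).

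Gene positions, starts and promoter sequences came from RefSeq tables of GRCm38.p6. The promoter table held 30 of the 37 genes and 17492 of 21887 overall. Summits were assigned to every protein-coding gene that contained them or lay within 10 kb, and were shared if at most 200 bp from a summit of the other list. Named genes were all 37, plus other pathway genes with a WT summit or the 3 highest 3KR scores per group, of which 1 gene is not reported here. Mx1 is not protein-coding in this table and was left out. The members and lists were chosen with earlier results of these data known. Assignment was tested on simulated summits. Alternatives varied distance, gene assignment, sharing distance, score and list length. Python 3.11.15, pandas 2.3.3 and numpy 2.4.6 were used.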

Additional observations from a re-analysis of the deposited data

How the results depend on the processing

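The 3KR count of 17 genes became 9 within 1 kb, 33 within 50 kb, 9 in the top 50% by score and 3 with the 3KR list cut to the WT length; the count in 3KR alone (16) became 9, 30, 9 and 3 in the same order. The WT count of 1 became 0 within 5 kb, 0 within 1 kb, 0 in the top 50% by score and 3 within 50 kb. The count of genes with a shared site was 0 under every alternative except 50 kb, where it was 1 (Tnfaip3). The count of genes with a 3KR summit within 1 kb of a start (8) became 3 in the top 50% by score and 1 with the cut list. Fewer summits or a different window make each of these counts differ by construction. The median rank was 3481.5 also with nearest genes only. Of 126 counts for single genes under the alternatives, 75 were within 1.5 times the main count and 51 were not. Of the 126, 39 came to no summit and 11 were higher than the main count. Rela within 50 kb, with 3 summits beside 2, is in both the 75 and the 11. In the top 50% by score and with the cut list, Rela fell from 2 summits to 1.

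No paired analysis was possible because neither list separates libraries, whether it combines all 3 of its genotype, as the labels have it, or not. For the same reason leaving out a library was not run. The depth of each list is unknown, so a summit missing from a list was not detectable at its depth and threshold, which does not show that binding was absent.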
